A study of Mus musculus with 24 samples.

Results

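The glutathione S-transferase (GST) family was followed in mouse liver across a low-fat diet, a high-fat diet and a high-fat diet with yam propagules. The members were 10 genes of the cytosolic family: Gsta3 and Gsta4 of the alpha class, Gstm1, Gstm2, Gstm3, Gstm4 and Gstm6 of the mu class, and Gstt1, Gstt2 and Gstt3 of the theta class. Every probe set annotated to exactly 1 of these symbols was taken, which gave 15 of the 45101 probe sets of the array, 3 alpha, 9 mu and 3 theta. Gstm1 had 4 probe sets, Gsta3 and Gstm3 had 2 each, and the other genes had 1. No filter on low values was applied, so that all 15 were tested.

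The livers came from male C57BL6J mice, whose age the labels do not give. The LF group (6 mice) ate low-fat food. The HF group (6 mice) ate food with 45% fat, and in the HF+P group (6 mice) 5% powdered propagules, the small aerial tubers of Japanese yam, were added to that food. The fat content of the LF diet is not given in the labels. Each diet lasted 4 weeks, all mice had first been adapted to low-fat food, and all were fasted for 16 h before the liver was taken. RNA was read on 1 Affymetrix 3' array per mouse, and precision is limited by 6 arrays per group. The authors processed the HF arrays together with LF, and a further time together with HF+P. HF therefore has values in both of these value sets, and each comparison stayed within 1 set.

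GST enzymes join the thiol of glutathione to electrophilic compounds, which makes drugs, plant compounds and products of lipid peroxidation more soluble and less reactive. The conjugates leave the hepatocyte through transporters and are trimmed to mercapturic acids. In liver the alpha and mu classes are abundant soluble proteins and are known targets of the oxidant-sensing factor NRF2 and of the xenobiotic receptors PXR and CAR, while the theta class handles small halogenated compounds and organic hydroperoxides. The mu genes lie side by side on 1 chromosome and resemble each other closely, as do the theta genes on another, so that a probe set can take up signal from a near copy. In the array's naming, the endings _x_at and _s_at mark probe sets known to share probes with other transcripts.

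The promoter sequences of 8 of the 10 members were matched by symbol in the RefSeq table of GRCm38.p6, in 13 windows; Gsta4 and Gstt2 had no entry. Of these, 3 windows of 250 bases before an annotated start are shown, for Gsta3, the alpha gene with the smallest p in the comparison of HF with LF, and for Gstm1 and Gstm3, mu genes of the same chromosome whose values correlated between mice. Capitals mark matches on either strand to TGACNNNGC, the core of the antioxidant response element that NRF2 binds, to TATAAA, the TATA box, and to GTTAAT, a short HNF1 motif. The windows are chr1:21240335-21240584 on the plus strand for Gsta3, and chr3:108017974-108018223 and chr3:107969175-107969424 on the minus strand for Gstm1 and Gstm3.
Gsta3: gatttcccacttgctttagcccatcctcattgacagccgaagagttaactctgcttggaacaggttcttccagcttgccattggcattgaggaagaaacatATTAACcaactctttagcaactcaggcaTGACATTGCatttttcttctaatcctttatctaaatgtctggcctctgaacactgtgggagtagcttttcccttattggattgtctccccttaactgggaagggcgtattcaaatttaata
Gstm1: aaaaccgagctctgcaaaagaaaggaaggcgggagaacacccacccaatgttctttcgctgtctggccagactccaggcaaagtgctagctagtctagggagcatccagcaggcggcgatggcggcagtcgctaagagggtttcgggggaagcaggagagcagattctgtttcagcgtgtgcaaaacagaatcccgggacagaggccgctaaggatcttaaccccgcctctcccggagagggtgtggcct
Gstm3: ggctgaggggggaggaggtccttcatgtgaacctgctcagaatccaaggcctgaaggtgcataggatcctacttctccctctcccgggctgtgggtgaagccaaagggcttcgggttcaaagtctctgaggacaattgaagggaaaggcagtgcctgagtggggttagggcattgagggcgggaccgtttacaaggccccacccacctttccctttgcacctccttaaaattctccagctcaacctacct

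Among the member windows the antioxidant core was found in that of Gsta3, at position -121 from the start, and in 1 of the 13 windows in all. It is held by 10.2% of the 32851 promoter windows of the table. The HNF1 motif was also found in Gsta3, at position -149, and is held by 6.43% of all windows. The TATA box was found at position -30 in the other window of Gstm1, and is held by 12.4% of all windows. These matches are letters in a short window and do not show that a factor was bound.

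The deposited values are compressed: over all 45037 probe sets that are not controls, the median of the within-group SD was 4.06e-06 for LF with HF, the first value set, and 4.2e-06 for HF with HF+P, the second. The members lay at the wide end of this range. Their within-group SD ran from 2.09e-05 to 0.0014 in the first set, above that of 87.6% to 99.1% of probe sets, and 12 of the 15 were in the widest 5%. In the second set 8 of the 15 were in the widest 5%. A difference in these values is not a fold change. Sizes are therefore given as standardized differences: the gap between the means, in units of the pooled SD within groups, with a correction for small samples and a 95% interval. The value of a mouse is given as its deviation from the control mean in the same pooled SDs, without that correction.

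The 6 HF arrays gave the members nearly the same order of mice in both value sets. Of the 15 pairs of HF mice, between 13 and 15 kept their order in each member probe set, with a median of 15, against a median of 14 over all probe sets. The level and the spread were not kept. Gsta3 probe set 1423437_at had an HF mean of 9.86 in the first set and 11.26 in the second, and its SD over the same 6 arrays was 17.3 times as wide in the first. For Gstm2 the first set was the narrower one, with a ratio of 0.586. Levels are for this reason not compared between the sets, nor between genes, and a size in pooled SDs belongs to its own value set.

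High-fat loading was the question of the comparison of HF with LF. No member passed: 0 of the 15 probe sets were called (limma, Benjamini-Hochberg adjusted p under 0.05), where 0.671% of all probe sets were called, and the smallest adjusted p of a member was 0.211. At an adjusted p under 0.10 there were also 0 of 15, where 1.91% of all probe sets passed. At an unadjusted p under 0.05 there were 3 of 15, where 12.9% of all probe sets reached it. The groups overlapped in all 15, where 1.57% of all probe sets had groups that did not overlap. By class, all 3 alpha probe sets had higher values in HF, 8 of 9 mu probe sets had lower values, and the theta class was split, with 2 higher and 1 lower. The median standardized difference was -0.47 over the 15 and 0.015 over all probe sets.

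**Figure D1:**
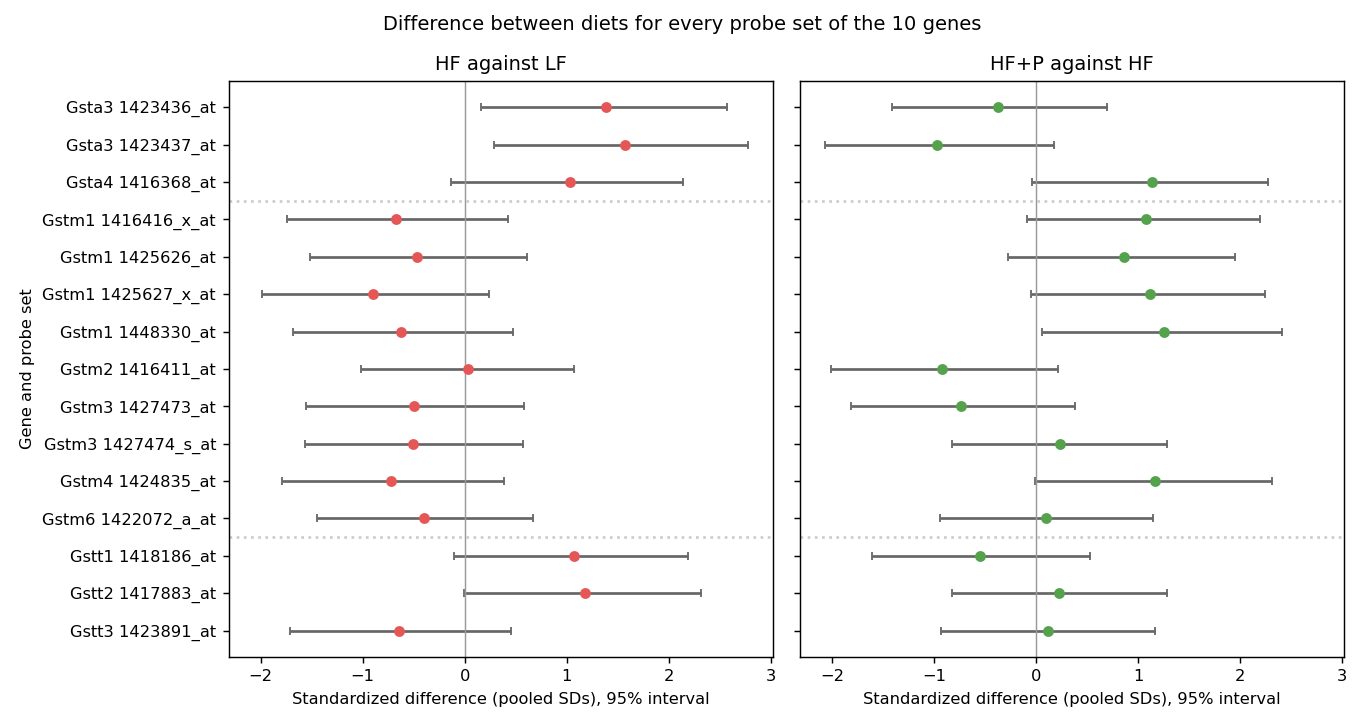
Standardized difference of each of the 15 probe sets (points, in pooled within-group SDs) with its 95% interval (bars), for HF against LF on the left and HF+P against HF on the right, 6 mice per group; dotted lines separate the alpha, mu and theta classes. On the left both Gsta3 intervals lie above 0 and every mu interval crosses 0; on the right the interval of 1 Gstm1 probe set lies above 0, and no probe set passed after adjustment on either side.

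Gsta3, an alpha transferase known for conjugating aflatoxin epoxide in mouse liver, had the smallest p values among the 10 genes. In probe set 1423437_at the deposited mean was 9.854631 ± 0.00116 in LF and 9.856149 ± 0.000495 in HF (SD, n = 6). The LF mice lay between -2.25 and 1.75 pooled SDs from the LF mean with a median of 0.15, and the HF mice between 1.15 and 2.42 with a median of 1.65. All 6 HF mice lay above the LF mean and 3 above the highest LF mouse, and LF mouse 8 was the lowest of all. The standardized difference was 1.57 (0.29 to 2.78; limma, adjusted p = 0.211).

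The other probe set of Gsta3, 1423436_at, had values from 12.468064 to 12.468868 in LF, with a median of 12.468585, and from 12.468698 to 12.469072 in HF, with a median of 12.468873. Here too 3 HF mice exceeded every LF mouse, and the standardized difference was 1.39 (0.16 to 2.57; limma, adjusted p = 0.273). After the arrays were centred on their medians, both probe sets of Gsta3 passed, with values of 1.10 and 1.49. The column medians were 6.45e-05 higher in HF than in LF, which centring removes. Of all 45037 probe sets 42369 were then called, 322 higher and 42047 lower, against 121 higher and 181 lower without it.

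Gsta4, the alpha enzyme that clears 4-hydroxynonenal, a product of lipid peroxidation, ranged from -1.63 to 1.69 pooled SDs in LF with a median of -0.10. In HF it ranged from 0.34 to 2.39 with a median of 1.11. All 6 HF mice lay above the LF mean but only HF mouse 2 lay above LF mouse 2, the highest of the LF group. The standardized difference was 1.03 (-0.13 to 2.14; limma, adjusted p = 0.442).

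Gstm1, a mu transferase of broad substrate range, had lower HF means in all 4 of its probe sets, with standardized differences of -0.67, -0.47, -0.90 and -0.62. In probe set 1425627_x_at, where the difference was largest, the LF mice ranged from -1.12 to 1.57 pooled SDs with a median of -0.31. The HF mice ranged from -2.0 to 0.46 with a median of -1.10, and 3 of them lay below every LF mouse. The interval of the difference was -1.99 to 0.24 (limma, adjusted p = 0.514). The 4 probe sets read 1 gene and are not 4 separate results.

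Gstm4, a mu gene of the same chromosome as Gstm1, had a standardized difference of -0.72 (-1.79 to 0.39). Its LF mice ranged from -1.48 to 1.64 pooled SDs and its HF mice from -2.01 to 0.13, with 1 HF mouse above the LF mean. Gstm3, a further mu transferase, had -0.50 and -0.51 in its 2 probe sets, and Gstm6 had -0.40. Scaling changed calls here: Gstm1 probe set 1425626_at passed at -1.93 after quantile normalisation and -1.44 after median centring (limma, adjusted p = 0.0257 and 0.0146), and Gstm3 probe set 1427473_at at -2.85 and -2.58 (limma, adjusted p = 0.0062 and 0.000507). Gstm6 passed after quantile normalisation at -1.72 (limma, adjusted p = 0.0418). Both settings also called many more probe sets over the whole array, nearly all of them lower in HF, and median centring called most of the array. Gstm2, which is known to be active toward nitroaromatic compounds, stood at 0.03 (-1.02 to 1.07), with signs that differed between settings: it was -0.25 after quantile normalisation and -0.03 after median centring.

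Gstm2 and Gstm6 shared 1 mouse that stood apart, in 2 of 60 groups screened, which is no more than the about 1 in 20 that chance gives. LF mouse 2 had 1.99 pooled SDs for Gstm2, where the other 5 LF mice lay between -0.72 and -0.20, and 1.95 for Gstm6, where the others lay between -0.85 and -0.05. Without LF mouse 2 the standardized difference of Gstm2 was 0.52 and that of Gstm6 was -0.06. The other members of the class kept lower HF values without it.

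In the theta class, Gstt2, an enzyme for hydroperoxides and sulfate esters, ranged from -1.28 to 1.88 pooled SDs in LF and from -0.19 to 2.34 in HF, with medians of -0.08 and 1.36. Its standardized difference was 1.18 (-0.0025 to 2.32; limma, adjusted p = 0.363), and it was -0.30 after quantile normalisation. Gstt1, which dehalogenates small compounds such as dichloromethane, had 1.07 (-0.10 to 2.19; adjusted p = 0.420 by limma), with all 6 HF mice above the LF mean and 2 above LF mouse 2, the highest LF mouse. The deposited difference of Gstt1, 5.16e-05, is smaller than the shift of the column medians, and with median centring its value was -0.22. Gstt3, the third theta gene, had -0.64 (-1.71 to 0.45) opposite in sign to Gstt1 and Gstt2.

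**Figure D2:**
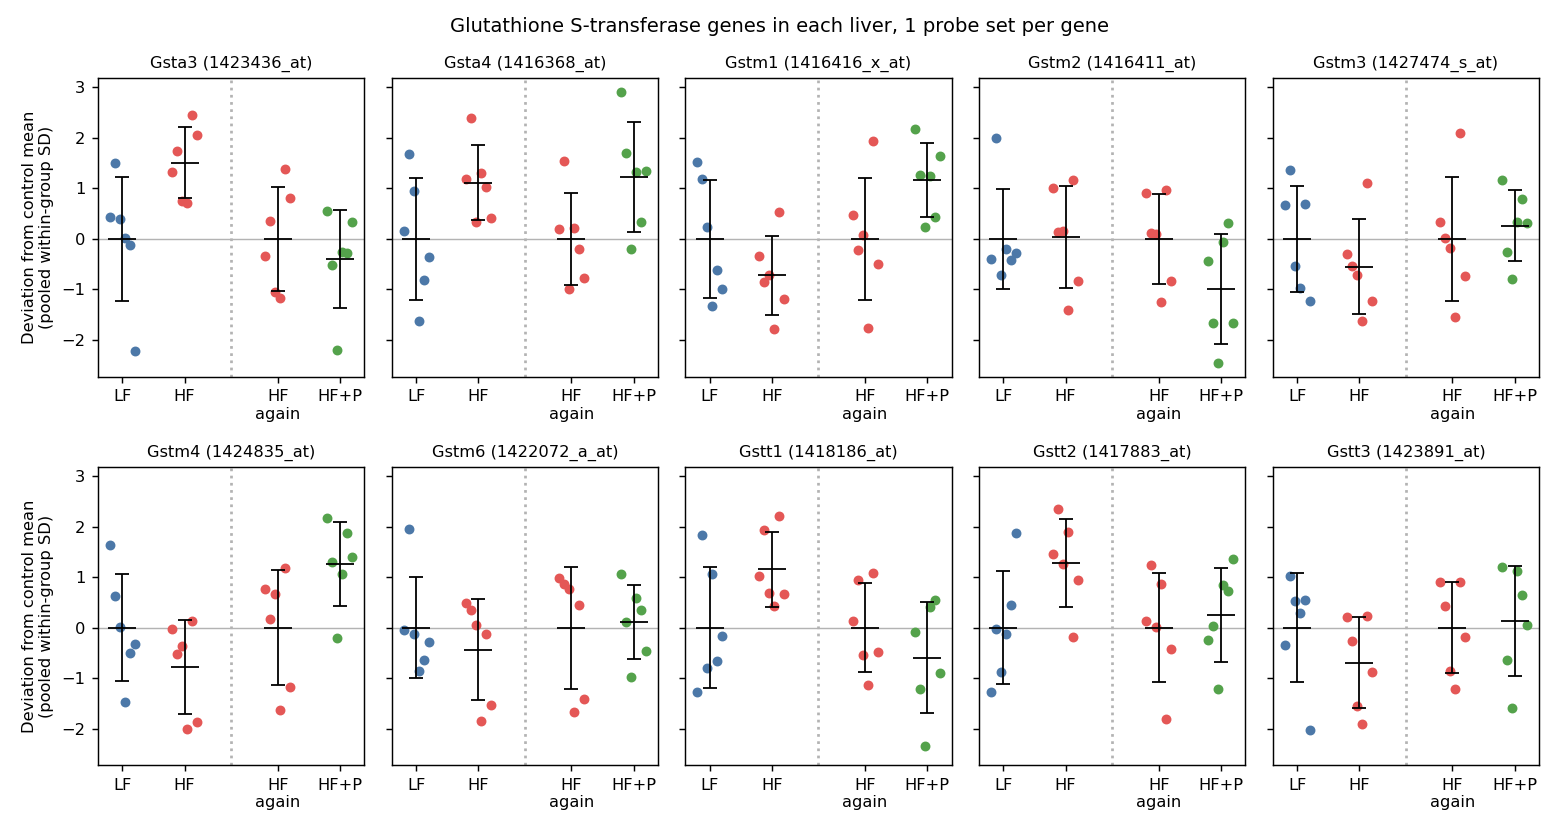
Each mouse (point) as its deviation from the control mean in pooled within-group SDs, with the group mean and SD (black), for the probe set of each gene with the highest mean level; left of the dotted line LF and HF in the first value set, right of it the same HF arrays processed again and HF+P, with control groups LF and HF. HF and LF overlap in every panel, as do HF+P and HF, and for Gsta3 the 6 HF mice lie between 0.72 and 2.45.

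The effect of the propagules was the question of the comparison of HF+P with HF. Again 0 of the 15 member probe sets were called, where 0.00222% of all probe sets were called, and the smallest adjusted p of a member was 0.691. At an unadjusted p under 0.05 there were 3 of 15, where 6.94% of all probe sets reached it, and all 15 had overlapping groups, where 0.355% of all probe sets had groups that did not overlap. Values were higher in HF+P in 10 probe sets and lower in 5. By class, 7 of 9 mu probe sets had higher values (median 0.86), as did 1 of 3 alpha and 2 of 3 theta probe sets (medians -0.37 and 0.12). The median standardized difference was 0.23 over the 15 and -0.01 over all probe sets. This comparison and that of HF with LF use the same HF arrays, so that a high or low HF mean moves both, in opposite directions.

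All 4 probe sets of Gstm1 had higher means in HF+P, with standardized differences of 1.08, 0.86, 1.12 and 1.26. The last of these, 1448330_at, had an unadjusted p of 0.0325 (interval 0.06 to 2.41; limma, adjusted p = 0.691). Its HF mice ranged from -1.73 to 1.80 pooled SDs with a median of -0.03, and its HF+P mice from 0.41 to 2.56 with a median of 1.45. All 6 HF+P mice lay above the HF mean, and 2 lay above HF mouse 5, the highest HF mouse.

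Gstm4 had the largest number of HF+P mice beyond the HF range. Its HF mice lay between -1.63 and 1.19 pooled SDs with a median of 0.43, and its HF+P mice between -0.21 and 2.18 with a median of 1.34, 4 of them above every HF mouse. The standardized difference was 1.17 (-0.01 to 2.31; limma, adjusted p = 0.710). Of the other mu genes, Gstm2 had lower values in HF+P at -0.92 (-2.01 to 0.22), Gstm6 had 0.10 (-0.94 to 1.15), and the probe sets of Gstm3 had opposite signs, -0.73 and 0.24.

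Gsta4 had 1.14 (-0.04 to 2.27; limma, adjusted p = 0.719), with 5 of 6 HF+P mice above the HF mean. Gsta3 had lower means in both probe sets, -0.37 and -0.97, the latter with an interval of -2.07 to 0.18. Of the theta genes, Gstt1 had -0.55 (-1.61 to 0.53), Gstt2 had 0.23 (-0.82 to 1.28) and Gstt3 had 0.12 (-0.93 to 1.17). Intervals of this width hold differences of 1 pooled SD and more on at least 1 side of 0 for every member, so that a missing call does not show equal expression.

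Mice fed the same diet differed from each other in most members at once. HF mouse 5 had the highest HF value in 12 of the 15 probe sets and HF mouse 4 the lowest in 13, where these mice were highest and lowest in 15.7% and 14.2% of all probe sets. In the processing with HF+P the counts were 11 and 12. Among the HF+P mice, mouse 3 was lowest in 13 of 15 and lay below the group mean in all 15, with a median deviation of -1.47 pooled SDs, and mouse 1 was highest in 11. In the LF group mouse 2 was highest in 9 of 15, with a median deviation of 1.36. The median deviation over all probe sets was -0.06 in LF mouse 2 and within 0.01 of 0 in HF mice 4 and 5 and in HF+P mice 1 and 3. These mice were named for their place in the members themselves. The 15 probe sets read 10 genes, 4 of them Gstm1 and 9 the mu class, so that the counts are not of separate results.

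**Figure D3:**
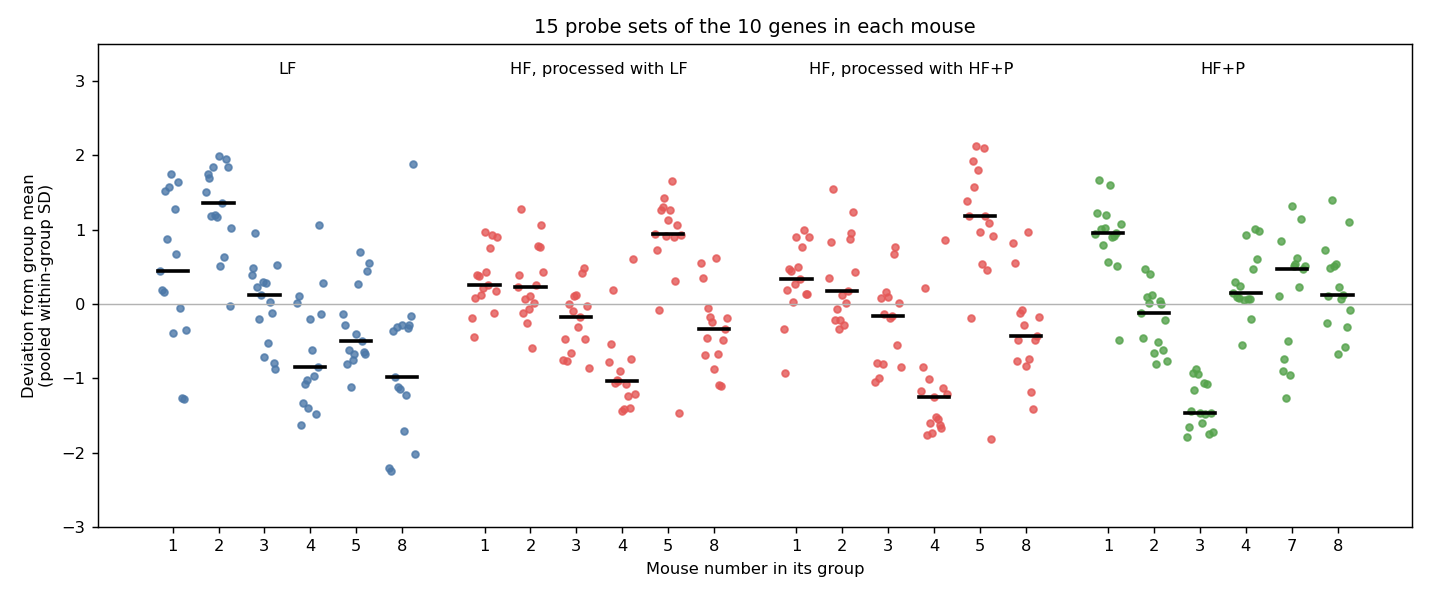
Deviation of the 15 member probe sets (points) from their group mean in each mouse, in pooled within-group SDs, with the median of the 15 (black bar), for LF, for HF in both processings and for HF+P. HF mouse 4 and HF+P mouse 3 lie low with medians of -1.03 and -1.47, and LF mouse 2 and HF mouse 5 lie high with 1.36 and 0.95.

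Pairs of members were compared through their deviations from the group means over 12 mice, with 1 probe set per gene and 45 pairs per value set. The probe set with the highest mean was used. For Gstm1 this was 1416416_x_at and for Gstm3 1427474_s_at, whose endings mark probes shared with other transcripts. The order of mice was permuted within groups, 100000 times. In the first value set, 37 of 45 pairs had a positive Pearson r, with a median of 0.48, and 5 pairs passed after Benjamini-Hochberg adjustment over the 45, all positive. In the second value set, 41 were positive, with a median of 0.64, and 22 passed, all positive. The same counts for pairs of genes outside the family are not given, so these have no background beside them. By Spearman's rho the counts were 2 and 10. Without LF mouse 2 the median over all pairs of the first set was 0.26. The sets share the 6 HF arrays and are not independent of each other.

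The mu class was the most closely tied. All 10 mu pairs were positive in both sets, with a median r of 0.71 in the first and 0.80 in the second. Without HF mice 4 and 5 the medians were 0.65 and 0.76. Gstm1 and Gstm4 had r = 0.91 (rho = 0.94) in the first set, with a permutation p of 1e-05 each, the smallest that the permutations can give, and an adjusted p of 0.00045. Without the 2 mice farthest from the median of Gstm1, r was 0.85. In the second set the pair had r = 0.80 (rho = 0.78; permutation p = 0.00204 and 0.00555, adjusted p = 0.0102 and 0.0312), and r = 0.66 without 2 mice.

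Gstm1 and Gstm3 had r = 0.82 (rho = 0.76) in the first set, with permutation p values of 0.0047 and 0.0127, adjusted to 0.0431 and 0.0715, and r = 0.78 without 2 mice. Gstm2 and Gstm3 had r = 0.73 (rho = 0.59; permutation p = 0.00321 and 0.0535, adjusted p = 0.0431 and 0.161), which was 0.44 without 2 mice. In each pair these are the mice farthest from the median of the gene named first. Leaving them out narrows the range of that gene, so that a lower r does not by itself show that a relation rests on them. In the second set this pair had r = 0.80 (rho = 0.89; permutation p = 0.00066 and 0.00028, adjusted p = 0.00756 and 0.0057), and r = 0.67 without 2 mice. Gstm1 and Gstm3 had r = 0.88 there (rho = 0.71; permutation p = 0.00264 and 0.0172, adjusted p = 0.0108 and 0.0645), and r = 0.63 without 2 mice. Among 18192 other genes the median r with Gstm1 was -0.03 in the first set and -0.02 in the second. An r above 0.5 was held by 6.49% and 6.22% of them. In the first set 0.0165% had a higher r with Gstm1 than Gstm4 had, and 0.115% a higher one than Gstm3. In the second set these shares were 0.236% and 0.0275%. For the first and second set they were 2.83% and 4.11% for Gstm2, and 1.69% and 1.99% for Gstm6. Outside the mu class they were 2.02% and 1.14% for Gsta3, and 4.88% and 17.5% for Gsta4. The theta genes had 31.6% and 4.94% (Gstt1), 97.3% and 85.2% (Gstt2), and 6.85% and 1.86% (Gstt3). How much of the relation within the mu class comes from probes shared between near copies was not tested.

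Ties also ran between classes. Gsta3 and Gstt3, which lie on different chromosomes, had r = 0.83 (rho = 0.64) in the first set, with permutation p values of 0.00479 and 0.037, adjusted to 0.0431 and 0.142, and r = 0.61 without 2 mice. In the second set they had r = 0.76 (rho = 0.70; permutation p = 0.0073 and 0.0158, adjusted p = 0.0253 and 0.0645), and r = 0.48 without 2 mice. Gstm2 and Gstt1 had r = 0.75 (rho = 0.81; permutation p = 0.00465 and 0.00035, adjusted p = 0.0431 and 0.00787) in the first set, which was 0.40 without 2 mice. In the second set this pair had r = 0.90 (rho = 0.92; permutation p = 0.00084 and 0.00038, adjusted p = 0.00756 and 0.0057), and r = 0.81 without 2 mice.

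Gstt2 did not follow the rest in the first set, and its negative values in the second set were absent without HF mice 4 and 5. Its r with Gsta3 was -0.70 in the first set (rho = -0.73; permutation p = 0.0266 and 0.0119, adjusted p = 0.0872 and 0.0715), which did not pass, and -0.65 without 2 mice; in the second set it was -0.04 (rho = -0.16; permutation p = 0.918 and 0.64, adjusted p = 0.933 and 0.753) and -0.38 without 2 mice. Its r with Gstm1 was -0.66 in the first set (rho = -0.59; permutation p = 0.0324 and 0.0608, adjusted p = 0.0872 and 0.171) and -0.37 without 2 mice. In the second set it was -0.39 (rho = -0.27; permutation p = 0.25 and 0.414, adjusted p = 0.342 and 0.564) and 0.26 without 2 mice. In HF mouse 5, the highest HF mouse of most members, Gstt2 had the lowest HF value. Without HF mice 4 and 5 all 45 pairs of members in the second set were positive, with a lowest r of 0.09. Among the HF+P mice alone all 45 were positive, with a lowest r of 0.16. In the first set without HF mice 4 and 5, 37 of 45 were positive, with a lowest r of -0.65.

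**Figure D4:**
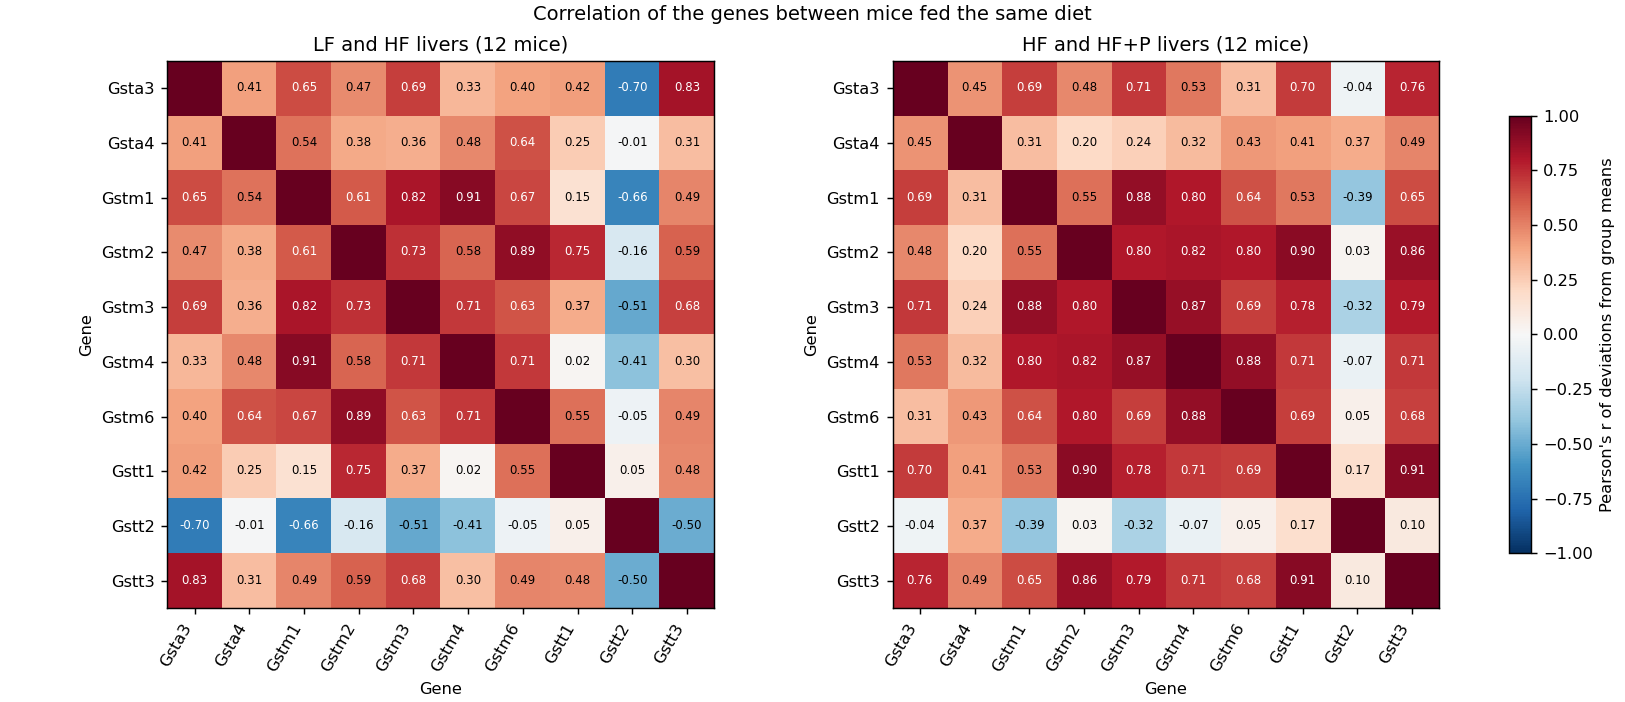
Pearson's r between the deviations of each pair of the 10 genes from their group means over 12 mice, in the set of LF and HF livers on the left and of HF and HF+P livers on the right; red is positive and blue negative. The block of mu genes, Gstm1 to Gstm6, holds values from 0.58 to 0.91 on the left and from 0.55 to 0.88 on the right, and the row of Gstt2 stands apart with -0.70 to 0.05 and -0.39 to 0.37.

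The mice at the ends of this order also differed in other lists. LF mouse 8 and HF mouse 4 were below their group mean in most NRF2 target genes outside the family, with 5 of 17 above it in each, and LF mouse 2 and HF mouse 5 had 12 of 17 above it. HF+P mouse 3, the lowest of its group in the family, had 11 of 17 above the mean. Mice not at the ends of the order also varied in this list. HF mouse 1 had 5 of 17 above the mean, with 12 of the 15 member probe sets above it. LF mouse 3 had 15 of 17, the most of its group, with 9 of 15 member probe sets. Of 15 other GST genes, 9 lay above the group mean in HF mouse 5 and 5 in HF mouse 4. In HF+P mice 1 and 3, 11 and 4 did, and HF+P mouse 2 also had 11. Of 14 glutathione synthesis, reduction and breakdown genes, 10 and 5 did in HF mice 5 and 4, and 11 and 4 in HF+P mice 1 and 3. Of 19 PXR and CAR targets the counts were 12 and 5, and 11 and 3. In LF mice 2 and 8 these lists had 10 and 5, 8 and 4, and 13 and 4. Over all probe sets the share above the group mean lay between 46.2% and 52.9% in each mouse. Of 11 hepatocyte markers, 9 lay above the group mean in HF mouse 5, 6 in HF mouse 4 and 2 in HF+P mouse 3. In LF mouse 2, high for the family, 3 of the 11 lay above it, and in LF mouse 8, low for the family, 1 did. All 9 Kupffer cell markers lay above the group mean in HF+P mouse 3 and none did in HF+P mouse 1 or LF mouse 2, while in HF mice 4 and 5, at opposite ends for the family, 9 and 8 did. The part of these lists in the variation of the family was not tested. In RNA from whole liver, fewer cells of a type and less RNA per cell cannot be told apart.

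The tissue label was checked against marker lists. The 11 measured hepatocyte markers, among them albumin and transthyretin, had mean deposited values from 12.12 to 14.89 in the first set, where the column median was 6.90. Those of 5 pancreatic acinar markers ran from 6.51 to 8.78 and those of 5 bile duct markers from 6.57 to 7.33. No hepatocyte, Kupffer cell, bile duct, endothelial, stellate, lymphocyte, neutrophil, red blood cell, pancreatic or fat cell marker was called in either comparison. In HF against LF the medians were -0.44 for hepatocyte, -0.35 for bile duct, -0.79 for endothelial, 0.31 for stellate, 0.33 for neutrophil, 0.13 for red blood cell, 0.94 for pancreatic and -0.32 for fat cell markers. In HF+P against HF, in the same order, they were 0.14, 0.20, 0.37, -0.08, -0.41, -0.94, -0.77 and 0.46. All 9 Kupffer cell markers had higher values in HF than in LF and lower values in HF+P than in HF, with medians of 0.74 and -0.68, and the 6 lymphocyte markers did likewise, with 0.83 and -0.49. For 5 of these 6 the difference between HF and LF is smaller than the shift of the column medians, so that its direction depends on the centring, and this holds for 0 of the 9 Kupffer cell markers. The summed deposited values of the Kupffer cell markers overlapped between the groups, from 84.97 to 85.10 in LF and 84.98 to 85.06 in HF, as did those of the lymphocyte markers. In HF mouse 3 the mean deviation from the group mean in the first set was 1.79 pooled SDs for Kupffer cell markers and 1.68 for lymphocyte markers. LF mouse 3 and HF+P mouse 3 had 1.63 and 1.05 for the former, and 0.19 and 0.82 for the latter. Both comparisons use the same HF arrays, so that a high HF mouse moves both in opposite directions. The sums of the pancreatic markers did not overlap, at 36.5302 to 36.5303 in LF and 36.5304 to 36.5307 in HF, and 3 of the 4 that were higher differed by less than the shift of the medians. Whether these sums stay apart after centring was not tested.

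The rest of the pathway was read from lists of genes, 1 probe set per gene. Over all probe sets, 0.269% were called higher and 0.402% lower in HF than in LF. Of 15 other cytosolic and membrane GST genes 0 were called in either comparison, 9 having higher and 6 lower values in HF than in LF (median 0.18, and 0.28 in HF+P against HF). Of these 9, 7 differed by less than the shift of the column medians, so that their direction depends on the centring. Gsta2, an alpha transferase named after its values were seen, had 1.34 (0.12 to 2.5; limma, adjusted p = 0.296) in HF against LF and 1.21 (0.02 to 2.36; adjusted p = 0.703 by limma) in HF+P against HF. In glutathione synthesis, reduction and breakdown 1 of 14 genes rose in HF and 0 fell: Gss, glutathione synthetase, rose by 3.61 pooled SDs (limma, adjusted p = 0.0137). Its deposited difference of 1.08e-05 is smaller than the shift of the column medians, so that its direction depends on the centring.

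Of 17 NRF2 target genes outside the family 0 were called in HF against LF (median 0.05), and Nqo1, the quinone reductase commonly used to read NRF2 activity, had -0.49. The list held 9 higher and 8 lower values, from -1.93 for Srxn1 to 2.35 for Osgin1 (limma, adjusted p = 0.127 and 0.0711). Of the 9, 4 differed by less than the shift of the column medians. Of 17 regulators 0 were called, with Nfe2l2, which encodes NRF2, at 0.23, Nr1i2 (PXR) at 0.73 and Nr1i3 (CAR) at 1.32. Of the 14 regulators with higher values in HF, 10 differed by less than the shift of the column medians, Nfe2l2 and Nr1i2 among them. Of 19 PXR and CAR target genes 3 fell and 0 rose: Cyp3a11 (-9.24), Cyp3a44 (-4.67) and Ces2a (-3.45), with adjusted p = 2.39e-05, 0.00378 and 0.0156 by limma, while the median of the list was -0.45. The Cyp3a genes are close copies of each other, so that their probe sets are not certain to read 1 gene. The 12 genes of conjugate export and mercapturate formation had a median of 1.23 with 9 of 12 higher in HF and 0 called. Their summed deposited values did not overlap, at 113.9594 to 113.9624 in LF and 113.9626 to 113.9659 in HF, and 4 of the 9 differed by less than the shift of the column medians. The shift of the column medians adds up over the genes of such a sum, and whether the groups stay apart after centring was not tested. No share of other gene sets with sums that do not overlap is given. Such a sum is led by the genes with the widest deposited values. Nat8f1, Nat8 and Kyat3 had the largest differences, 0.00157, 0.000606 and 0.000442, and the next was Abcc2 at 0.000156. In HF+P against HF, 0 genes of these lists were called, with medians of 0.10 for glutathione synthesis, 0.12 for NRF2 targets, -0.14 for regulators, -0.10 for PXR and CAR targets and -0.29 for export.

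Zonation was included because several GST genes are enriched near the central vein. Of 14 pericentral genes 1 rose in HF, Gulo (2.97, limma, adjusted p = 0.0322), an enzyme of vitamin C synthesis, and the median was 0.96. Of the 11 pericentral genes with higher values in HF, 5 differed by less than the shift of the column medians. Of 11 periportal genes 1 rose, Pigr (3.69; adjusted p = 0.0118 by limma), the receptor that carries polymeric immunoglobulins into bile, and the median was -0.55. In HF+P against HF neither list had a call, and the medians were -0.34 and 0.88.

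Genes outside the family with the most similar deviations over the 12 LF and HF mice were named for the 3 members with the smallest p, from 11634 genes above the median level and as a description. For Gsta3 they were Ednrb, an endothelin receptor (r = 0.93), Adk, adenosine kinase (0.92), and Wdr61 (0.90), with 0.70, 0.78 and 0.68 in the second set. For Gstt2 they were Senp7, a SUMO protease (0.93), Ccdc90b (0.93) and Lsm2 (0.92), with 0.72, 0.35 and 0.16 in the second set. For Gstt1 they were Sqor, the mitochondrial sulfide oxidase (0.96), Itm2a (0.91) and Phpt1 (0.90), with 0.55, 0.19 and 0.53. The highest of 11634 values are large by selection.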

How the data were processed

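The table deposited by the authors holds 45101 probe sets in 24 columns, normalised and summarised by the authors per value set of 12 arrays; the submitters' processing notes name R 2.7.2. The summarisation method was not given in the sources used here, nor was the base of the logarithm. Deposited values lie between 5.36 and 15.0 and were handled as log2 values. The 64 control probe sets were left out. A single gene symbol was annotated to 34945 probe sets, several to 932 and none listed for 9160. RefSeq's table (GRCm38.p6) held 34741 of the former, and 0 symbols were updated.

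Each comparison was fitted over 45037 probe sets in limma 3.58.1 (R 4.3.3, lmFit and eBayes), 6 mice per group, two-sided, without covariates, with Benjamini-Hochberg adjustment and a threshold of 0.05. The fit was tested on simulated data. Intervals of standardized differences come from the noncentral t distribution with 10 degrees of freedom. Lists used the probe set with the highest mean per gene. Nothing in the labels says more of how mice were housed or grouped, and p-values measure the spread between these mice.

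The members and the 18 lists were chosen with earlier results of these data known. Named genes were all member probe sets, up to 3 called genes per list, and the 3 most similar genes for 3 members; other GST genes and genes named at uncalled values were chosen after their values were seen. The alternatives were other normalisations, a filter on dim probe sets, 1 probe set per gene, other variance models, array weights, the mouse number as a block, a threshold of 0.10 and leaving out each mouse.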

Additional observations from a re-analysis of the deposited data

Results flagged for a closer look

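In 60 groups of 6 values (15 probe sets in LF, in HF in both processings and in HF+P), the highest or lowest mouse stood apart in 2, where chance gives about 1 in 20. The 2 flags do not exceed that share. Both were LF mouse 2. For Gstm2 its deposited value was 9.082614, and the other 5 LF mice lay between 9.079994 and 9.080498, a gap of 0.808 of the whole range. For Gstm6 it was 8.519514 against 8.518841 to 8.519033, a gap of 0.714 of the range. Gstm2 and Gstm6 correlated with r = 0.89 over the 12 mice of that set (rho = 0.85; permutation p = 0.00729 and 0.0096, adjusted p = 0.0547 and 0.0715), and r was 0.85 without the 2 mice farthest from the median of Gstm2.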

How the results depend on the processing

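No member was called under a filter on dim probe sets, 1 probe set per gene, trend and robust settings, array weights, a threshold of 0.10, the replicate block or leaving out any mouse, in either comparison. Scaling changed this for HF against LF: of the 15 member probe sets 3 were called after quantile normalisation and 4 after median centring. Of all 45037 probe sets 7305 were called after quantile normalisation (219 higher, 7086 lower) and 42369 after median centring (322 higher, 42047 lower), against 302. After centring the share of members called was below the share of all probe sets. The shift of the column medians exceeds the difference of 94.7% of probe sets. Quantile normalisation could not test Gsta3 1423436_at, Gstm1 1448330_at and Gstt1, and in HF+P against HF also Gsta3 1423437_at, which kept 1 rank in all arrays. The filter on dim probe sets gave 568 calls and the threshold of 0.10 gave 861. Signs turned for Gstm2 in HF against LF (-0.25 quantile, -0.03 centring, -0.04 array weights), Gstt2 (-0.30 quantile) and Gstt1 (-0.22 centring). In HF+P against HF they turned for Gstm1 1425627_x_at (-2e-12 quantile, a difference of about 0), Gstm6 (-0.07 quantile) and Gstt2 (-0.84 quantile, -0.19 block), and centring gave 2 calls. The cause was not tested. Leaving out 1 mouse gave 131 (without LF mouse 5) to 325 calls in HF against LF and 0 (without HF+P mouse 1, 2 or 4) to 2 (without HF mouse 2) in HF+P against HF, and turned the sign of Gstm2 in the former (-0.18 to 0.52) and of Gstm3 1427474_s_at (-0.05 to 0.86), Gstm6 (-0.23 to 0.31), Gstt2 (-0.12 to 0.55) and Gstt3 (-0.10 to 0.52) in the latter. Spearman's rho, leaving out HF mice 4 and 5 and the other settings for correlations were chosen after seeing the data. Spearman's rho gave 2 and 10 pairs in place of 5 and 22. The median r of all pairs ran from 0.26 to 0.54 and from 0.53 to 0.69 without 1 mouse. Same-numbered mice had r between -0.13 and 0.098 in the first set (median 0.079, and -0.013 for other pairs). In the second set they had r between 0.034 and 0.209 (median 0.066, and -0.011 for other pairs). Whether they share more than a number was not tested. With the mouse number as a block 246 probe sets were called in HF against LF and 1 in HF+P against HF, and 0 members in each.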

Other observations

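Gsto1, an omega class transferase that reduces dehydroascorbate and was chosen here after its values were seen, lay lower in HF than in LF in both of its probe sets, with standardized differences of -1.79 (-3.06 to -0.46) and -1.99 (-3.31 to -0.61; limma, adjusted p = 0.158 and 0.116). In HF+P against HF the same probe sets had 2.90 (1.24 to 4.50) and 2.01 (0.62 to 3.34), with adjusted p = 0.436 and 0.506 by limma. In the former, 1416531_at, each of the 6 HF+P values exceeded each of the 6 HF values, an absence of overlap that 0.355% of all probe sets showed in either direction, and the unadjusted p was 0.000171. Both comparisons use the HF arrays, and neither passed. Gstp3, a pi class gene also chosen after its values were seen, had 0.84 in HF against LF and -2.22 (-3.61 to -0.77; limma, adjusted p = 0.462) in HF+P against HF, and each of its 6 HF+P values was below each of its 6 HF values.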
